A study of Oryza sativa with 72 samples.

Results

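The progression of severe drought was followed in the leaves of rice plants of the indica cultivar IR64 by setting 6 treated libraries of drought day 6 against 6 treated libraries of drought day 0, 3 from each of 2 leaf positions per day. These 12 treated libraries, chosen from the labels alone, are 12 of the 72 libraries of the series, and 12 control libraries of the same days and leaf positions served as background. The treated groups were plants whose pots were raised clear of the water supply to drain, beginning 14 days after sowing and lasting 9 days before water was returned for 6 days, so that day 6 falls within the drought, while day 0 is the label of its first sampling. The control groups were plants of the same cultivar and days that stayed irrigated. Plants grew singly in pots of calcined clay in a growth chamber, and from each the latest and the second latest fully expanded leaf was taken for polyadenylated RNA sequencing with a directional kit. Leaves were defined by position, and whether the latest leaf at day 6 had already been the latest leaf at day 0 is not given in the sources used here.

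When roots lose access to water, leaves accumulate the hormone abscisic acid, which closes stomata and switches on genes for protective proteins and compatible solutes. Closed stomata limit carbon uptake, and transcripts of photosynthesis and growth genes, among the most abundant in a leaf, are commonly reduced under such stress. Fully expanded leaves of different age can differ in how they respond, since older leaves export nutrients and senesce earlier. None of this could be followed gene by gene, because the deposited count table holds no gene identifiers. Each of its 55986 lines is called a feature here and named by its place in the table. No feature could be given a gene name or a role, and the labelled tissue could not be checked against marker genes.

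The 24 libraries held between 7523706 and 17186082 counts assigned to features, with a median of 12656800, and between 24366 and 27394 features with at least 1 count. A count of 3, the limit that a count of 0 allows, corresponded to 0.399 CPM, the counts of a feature scaled to a fixed library total, in the smallest library and 0.175 CPM in the largest, which covers counting error only. Since the labels name no separate plants behind the replicates, every p-value refers to variation among libraries, which may be technical. In whole leaves, fewer cells of a type and less RNA per cell cannot be told apart.

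In the latest leaf, 1863 of 19713 features tested differed between treated day 6 and treated day 0 at an adjusted p under 0.05 (edgeR quasi-likelihood test, Benjamini-Hochberg adjustment), which is 9.45% of those tested. Of these, 791 rose (4.01%) and 1072 fell (5.44%). The median log2 fold change was 0.76 among those that rose and -0.66 among those that fell, so most changes were below 2-fold. At least 2-fold changes were seen in 250 features that rose and 314 that fell, and at least 4-fold changes in 44 and 99. In the controls of the same leaf, 34 features passed, or 0.172% of those tested, 9 of them higher (0.0457%) and 25 lower (0.127%) at day 6. That control count was 489, 1 and 0 without control day 6 replicates 1, 2 and 3, and 0, 17 and 1 without control day 0 replicates 1, 2 and 3. The treated count moved by over 1.5 times when single treated libraries were left out: it was 843 without day 0 replicate 2, 1224 without day 0 replicate 3, and 1030, 1100 and 1171 without day 6 replicates 1, 2 and 3. In the fit of all usable libraries of the leaf it was 720, 351 higher and 369 lower.

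In the second latest leaf the count was smaller. The called changes were larger, but a threshold that few features pass favours large estimates. Over all tested features the median absolute log2 change in treated leaves was 0.19 here and 0.21 in the latest leaf. Of 19578 features tested, 107 passed in treated day 6 against treated day 0, or 0.547%, of which 45 rose (0.23%) and 62 fell (0.317%). Their median log2 fold change was 1.45 among those that rose and -1.23 among those that fell, and 77 changed at least 2-fold, 38 upward and 39 downward. Same-numbered treated libraries of the 2 days deviated together in this leaf. With the number as a replicate block 170 features passed, 77 higher and 93 lower. That block spanned treated and control libraries, whose same-numbered pairs in this leaf had correlations between -0.322 and 0.133. No feature passed in the controls of this leaf (0 by edgeR, 0% of those tested, although 1717 had a p under 0.05 before adjustment and DESeq2 called 17). The treated count depended strongly on single libraries: it was 40, 11 and 37 without day 0 replicates 1, 2 and 3, and 11, 503 and 25 without day 6 replicates 1, 2 and 3.

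**Figure D1:**
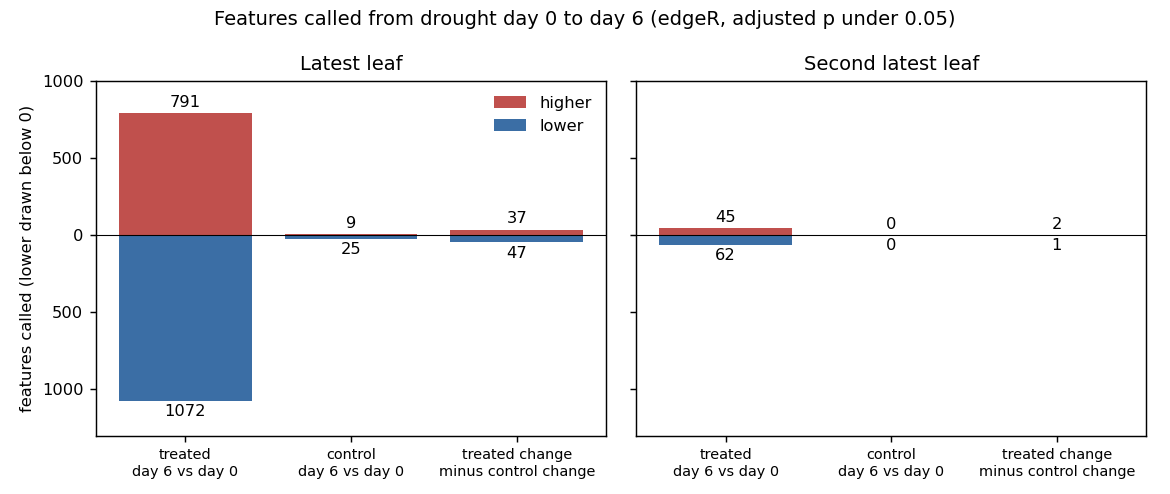
Bars give the number of features called higher or lower in each comparison at an adjusted p under 0.05, for treated and control libraries of both leaf positions. The treated latest leaf has 791 higher and 1072 lower features, against 9 and 25 in the control latest leaf.

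The features that fell in the latest leaf lay toward the abundant end of the leaf's transcripts. With the tested features split into 4 equal groups by mean abundance, the lowest group had 128 that rose and 146 that fell, the next 257 and 179, and the next 245 and 216. In the most abundant group 161 rose and 531 fell, and 14.0% of that group was called. Among the 100 features most abundant in control libraries, 1 rose and 34 fell, and their median log2 change was -0.41 in treated leaves, against -0.23 in control leaves, where 0 of them were called and 77 had a negative estimate. Among the 1000 most abundant, 18 rose and 227 fell, and 767 had a negative estimate in treated leaves. In control leaves 0 of these 1000 were called higher and 6 lower, and 669 had a negative estimate. The most abundant group of the second latest leaf had 8 that rose and 29 that fell. Among the 100 most abundant in control libraries of that leaf 0 rose and 1 fell. Their median log2 change was -0.33 in treated leaves, with 83 negative estimates, and -0.11 in control leaves, with 67 negative.

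The spread of counts over features moved in the same libraries. At an equal depth of 7523706 counts, treated latest leaves were expected to show 24951 ± 47.5 features at day 6 and 24420 ± 71.1 at day 0 (SD, n = 3 each). Treated second latest leaves were expected to show 25261 ± 87.3 at day 6 and 24508 ± 123 at day 0 (SD, n = 3 each). In both leaf positions the 3 day 6 libraries lay above all 3 day 0 libraries (two-sided exact permutation p = 0.1, the smallest that 3 against 3 allows, 0.2 adjusted over 8 tests). Control leaves showed 209 more features at day 6 in the latest leaf (exact p = 0.4, adjusted 0.457) and 333 more in the second latest leaf (exact p = 0.2, adjusted 0.32). The 10 most abundant features of each library held 9.15% ± 0.810 of counts in treated latest leaves at day 6 and 11.3% ± 0.0962 at day 0 (SD, n = 3 each, exact p = 0.1, adjusted 0.2). Treated second latest leaves had 7.90% ± 0.404 of counts in these features at day 6 and 10.1% ± 0.291 at day 0 (SD, n = 3 each, exact p = 0.1, adjusted 0.2). The mean difference in this share, day 6 minus day 0, was -2.20 percentage points in treated and -2.21 in control latest leaves (exact p = 0.3, adjusted 0.4, in controls), and -0.197 in control second latest leaves (exact p = 0.8, adjusted 0.8). Library scaling factors moved with this, at 1.09 to 1.15 in treated latest leaves at day 6 and 0.962 to 0.990 at day 0, and at 0.919 to 1.06 in control latest leaves at day 6 and 0.870 to 0.932 at day 0. The part of these measures in the counts of changed features was not tested.

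Set against the change in control leaves over the same days, the treated change was distinguishable for far fewer features. In the latest leaf the difference between the treated change and the control change passed for 84 features, or 0.426% of those tested, 37 with a larger (0.188%) and 47 with a smaller, that is more negative, change (0.238%) in treated leaves. Of the 791 features that rose in treated latest leaves, 32 also passed this test, and of the 1072 that fell, 44 did. Before adjustment, 505 of the 791 and 607 of the 1072 had a p under 0.05 in this test, against 2685 of all 19713 tested. Choosing features by the treated change favours such values. A feature that did not pass was not thereby shown to change equally in treated and control leaves. For the second latest leaf 3 features passed, or 0.0153%, 2 larger (0.0102%) and 1 smaller (0.00511%). Single libraries decided much of the latest leaf's count of 84, which was 9 and 47 without treated day 0 replicates 2 and 3, 47, 54 and 30 without treated day 6 replicates 1, 2 and 3, 3 and 13 without control day 0 replicates 1 and 2, and 239, 11 and 51 without control day 6 replicates 1, 2 and 3. The second latest leaf's count of 3 became 36 without treated day 6 replicate 2, and 0 or 1 without any of 10 other libraries, all but treated day 6 replicate 1.

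For features called in treated leaves, control leaves moved the same way more often than not. Their smaller control change is a description, since choosing features by the treated change favours larger treated estimates. Over all tested features the median absolute log2 change was 0.21 in treated and 0.16 in control latest leaves. In second latest leaves it was 0.19 in treated and 0.17 in control leaves. The 791 features that rose in treated latest leaves had a median log2 change of 0.76 in treated leaves and 0.10 in control leaves, and 524 of them (66.2%) had a positive estimate in controls. The 1072 that fell had a median of -0.66 in treated leaves and -0.18 in control leaves, and 836 of them (78.0%) had a negative estimate in controls. Over all tested features, 57.9% had the same sign in treated and control latest leaves. The control estimate reached at least 50% of the treated one in 141 of the features that rose and 273 of those that fell. The control median in the second latest leaf was 0.23 for the 45 that rose, against 1.45 in treated leaves, and -0.31 for the 62 that fell, against -1.23 in treated leaves. Across features, the treated and control changes had a Pearson r of 0.28 in the latest leaf (Spearman rho 0.23, 19713 features) and 0.21 in the second latest leaf (rho 0.18, 19578 features). They come from different libraries but 1 scaling and 1 fit, and features are not independent replicates.

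**Figure D2:**
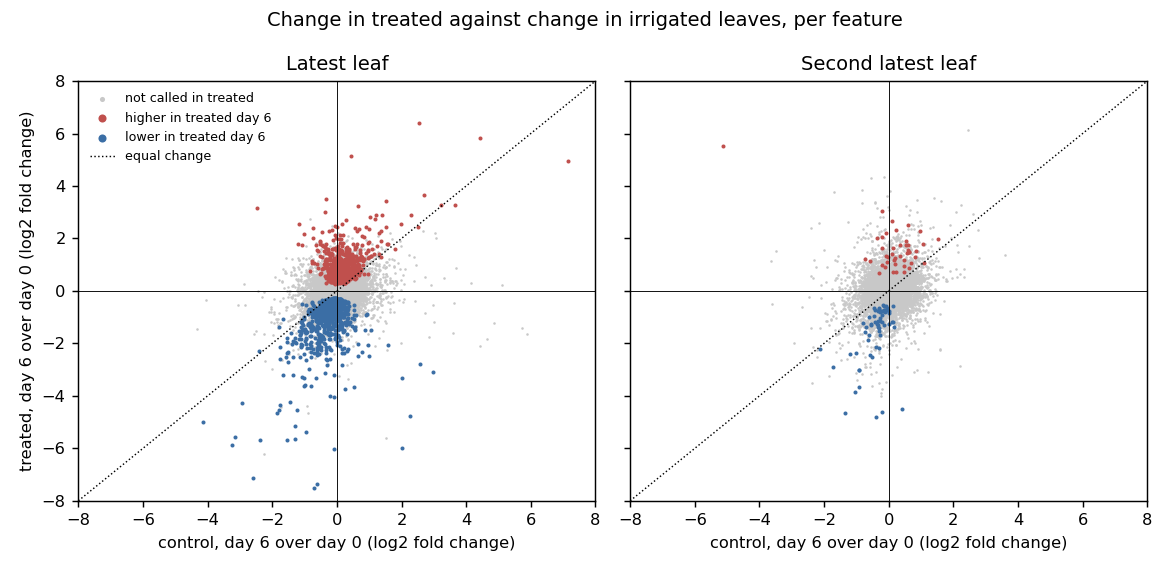
Each point is a feature, placed by its log2 fold change of day 6 over day 0 in treated and in control libraries of the same leaf position. The features called in treated leaves spread widely in the treated direction, which their choice favours. Their median control change stays between -0.18 and 0.10 in the latest leaf.

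Among the 84 features of the latest leaf that passed the test of the difference, the gap between treated and control leaves is given at day 6 and day 0 as a description, since choosing features by the difference between these gaps favours gaps and changes of opposite sign. The 37 with a larger change in treated leaves had a median log2 change of 0.89 in treated and -0.29 in control leaves. Their median treated minus control gap was 0.78 at day 6 and -0.40 at day 0, and 22 of the 37 had the wider gap at day 6. The 47 with a smaller change had medians of -1.17 in treated and 0.09 in control leaves, with gaps of -0.82 at day 6 and 0.36 at day 0, and 36 of the 47 had the wider gap at day 6. In 33 features of either kind the treated and control estimates had opposite signs, while 1 of the 37 and 2 of the 47 were called in the opposite direction in controls.

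Named features are those with the strongest fitted changes among features called in treated leaves whose treated libraries of the 2 days did not overlap, and called also in the test of the difference where enough such features existed. Feature 9453 met the rule in both leaf positions and fell furthest. In treated latest leaves it had 6.27, 7.08 and 13.2 CPM at day 6, against 151, 180.4 and 194 CPM at day 0. Control latest leaves had 129.6, 62.2 and 115 CPM at day 6 and 387, 297 and 352 CPM at day 0. Every treated library was thus below the control libraries of its day, and the control libraries of the 2 days did not overlap either. The log2 fold change was -4.33 in treated leaves (SE 0.30, adjusted p = 1.23e-05) and -1.76 in control leaves (SE 0.26, adjusted p = 0.0264), and their difference was -2.57 (SE 0.38, adjusted p = 0.0194). In treated second latest leaves feature 9453 had 0.874, 4.82 and 3.44 CPM at day 6, against 51.9, 97.2 and 84.3 CPM at day 0. Its log2 fold change there was -4.67 (SE 0.46, adjusted p = 0.00201), and the difference from the control change, -3.33, did not pass (adjusted p = 0.199). That difference passed with DESeq2 (adjusted p = 0.00936) and without treated day 6 replicate 2 (0.0331). Its adjusted p was between 0.0956 and 0.635 without any other single library. Without a low-count filter the estimate was nearly unchanged at -3.30, while the adjusted p fell to 8.99e-45. A value that small is not warranted by 3 libraries per group and is not counted as a pass.

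Feature 47519 fell in both leaf positions. In treated latest leaves it had 4.45, 7.48 and 6.05 CPM at day 6, against 21.1, 33.7 and 32.0 CPM at day 0. In control latest leaves it had 24.0, 15.5 and 20.6 CPM at day 6 and 26.9, 28.1 and 29.1 CPM at day 0. The treated day 6 libraries were the lowest of the 12 and overlapped with no other group. The log2 fold change was -2.27 in treated latest leaves (SE 0.22, adjusted p = 0.000138), and the difference from the control change was -1.78 (SE 0.29, adjusted p = 0.0225). The second latest leaf had treated values of 4.81, 5.06 and 4.63 CPM at day 6, against 8.79, 13.6 and 13.4 CPM at day 0, a log2 fold change of -1.31 (SE 0.18, adjusted p = 0.0121). The difference from the control change there, -0.97, did not pass (adjusted p = 0.419).

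Feature 40937 rose in both leaf positions. In treated latest leaves it had 8.09, 11.3 and 11.4 CPM at day 6, against 1.78, 1.30 and 1.60 CPM at day 0. In control latest leaves it had 3.74, 1.81 and 2.39 CPM at day 6 and 2.41, 2.51 and 1.51 CPM at day 0. The treated day 6 libraries stood above all others, and the control libraries of the 2 days overlapped. The log2 fold change was 2.69 in treated latest leaves (SE 0.27, adjusted p = 0.000188), and the difference from the control change was 2.41 (SE 0.40, adjusted p = 0.0248). The second latest leaf had treated values of 5.12, 11.3 and 6.94 CPM at day 6, against 1.73, 0.871 and 2.05 CPM at day 0, a log2 fold change of 2.30 (SE 0.45, adjusted p = 0.0432). The difference from the control change there, 2.07, did not pass (adjusted p = 0.453).

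Feature 26226 rose in the latest leaf, where it had 38.3, 24.0 and 22.7 CPM in treated libraries at day 6, against 6.34, 3.99 and 4.98 CPM at day 0. Control latest leaves had 6.50, 3.68 and 3.16 CPM at day 6 and 6.15, 4.45 and 3.22 CPM at day 0. All 3 treated day 6 libraries were above every other latest leaf library, and the other groups overlapped one another. The log2 fold change was 2.46 in treated latest leaves (SE 0.28, adjusted p = 0.000501), and the difference from the control change was 2.51 (SE 0.43, adjusted p = 0.0275). The second latest leaf had treated values of 25.9, 16.8 and 18.2 CPM at day 6, against 20.2, 4.68 and 13.5 CPM at day 0. Those libraries overlapped, and the log2 fold change of 0.67 did not pass (SE 0.49, adjusted p = 0.572). In the fit of all usable libraries of the latest leaf the treated call of feature 26226 was lost (adjusted p = 0.131).

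The treated calls of these 4 features in the latest leaf held without any single treated library (highest adjusted p = 0.00356), but the calls of the difference did not. For feature 9453 the difference was lost without control day 0 replicate 1 or 2 or treated day 0 replicate 2 (highest adjusted p = 0.0562), and for feature 47519 without those 3, treated day 0 replicate 3 or treated day 6 replicate 3 (highest 0.0782). For feature 26226 it was lost without control day 0 replicate 1 or 2, treated day 0 replicate 2 or 3, or control day 6 replicate 2 or 3 (highest 0.0976). For feature 40937 it was lost without any of those 6 libraries or treated day 6 replicate 2 or 3 (highest 0.0879). In the fit of all usable libraries of the latest leaf none of the 4 differences passed (adjusted p between 0.0986 and 0.595).

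In the second latest leaf, feature 35558 was the 1 feature that fell and also passed the test of the difference. It had 1.69, 4.94 and 2.31 CPM in treated libraries at day 6, against 41.3, 94.5 and 70.3 CPM at day 0. Control libraries had 82.6, 72.5 and 138 CPM at day 6 and 105, 48.1 and 65.3 CPM at day 0. The 3 treated day 6 libraries were far below the other 9, which overlapped. The log2 fold change was -4.52 in treated leaves (SE 0.46, adjusted p = 0.00201), and the difference from the control change was -4.94 (SE 0.58, adjusted p = 0.0232). In treated latest leaves it had 1.42, 3.54 and 1.07 CPM at day 6, against 13.7, 72.5 and 16.0 CPM at day 0, a log2 fold change of -4.01 (SE 0.70, adjusted p = 0.00394), but the difference there, -3.81, did not pass (adjusted p = 0.0804).

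Features 3736 and 45622 rose in treated second latest leaves, and at day 0 both were below their control level. Feature 3736 had 26.9, 28.6 and 48.6 CPM in treated second latest leaves at day 6, against 5.86, 9.36 and 9.42 CPM at day 0. Control second latest leaves had 21.8, 22.0 and 22.7 CPM at day 6 and 27.4, 24.5 and 24.7 CPM at day 0. The treated day 0 libraries were therefore the lowest of the 12 and the treated day 6 libraries overlapped with controls of day 0. Its log2 fold change was 2.06 (SE 0.23, adjusted p = 0.00261), and the difference from the control change was 2.27 (SE 0.31, adjusted p = 0.0378). Feature 45622 had 51.1, 49.6 and 56.0 CPM in treated libraries at day 6, against 32.4, 32.9 and 32.7 CPM at day 0, and control libraries had 41.2, 41.1 and 43.5 CPM at day 6 and 51.3, 48.8 and 53.6 CPM at day 0. Treated day 6 overlapped with control day 0, while treated day 0 was below every other group. Its log2 fold change was 0.68 (SE 0.09, adjusted p = 0.0115), and the difference was 0.97 (SE 0.13, adjusted p = 0.0378). In treated latest leaves both also rose, by 0.89 for feature 3736 (adjusted p = 0.0153) and 0.33 for feature 45622 (adjusted p = 0.0474). The difference from the control change did not pass there for feature 3736 (adjusted p = 0.257) or feature 45622 (adjusted p = 0.248). At day 6 feature 45622 averaged 42.2 CPM in treated and 45.8 CPM in control latest leaves.

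The calls in the second latest leaf were fragile for these features. The treated call of feature 45622 was lost without treated day 0 replicate 2 (adjusted p = 0.0547), with the 6 treated libraries alone (0.0636) and with all usable libraries of the leaf (0.102), and that of feature 3736 with the 6 treated libraries alone (0.0551). The call of the difference was lost for feature 3736 without any of 9 libraries, that is any control library or any treated day 0 library, for feature 45622 without any library but treated day 6 replicate 2 (highest adjusted p = 0.183 for both), and for feature 35558 without control day 0 replicate 2 or 3, treated day 0 replicate 2 or 3, control day 6 replicate 3 or treated day 6 replicate 3 (highest 0.135). With all usable libraries of the leaf it was lost for features 3736 (0.441) and 45622 (0.489).

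**Figure D3:**
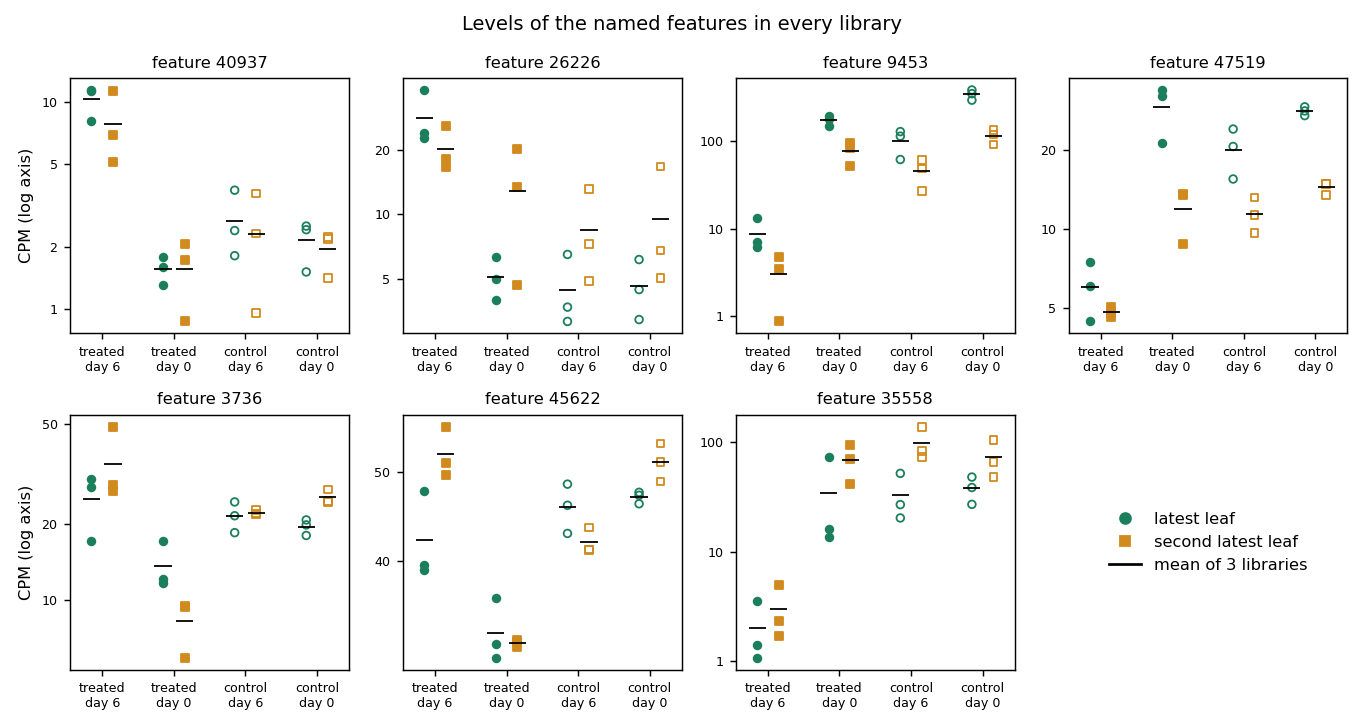
Each point is 1 library's CPM on a log axis for a named feature, with filled points for treated and open points for control libraries, green circles for the latest and orange squares for the second latest leaf, and a bar at the mean of 3. Features 9453, 47519 and 35558 are lowest in the treated libraries of day 6, and features 40937 and 26226 are highest there in the latest leaf.

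The 2 leaf positions largely shared the direction of the treated change. Over 19197 features tested in both, 774 rose in the latest leaf, and their median log2 change in the second latest leaf was 0.31, with 655 (84.6%) positive. Another 1052 fell in the latest leaf, with a median of -0.31 in the second latest leaf and 890 (84.6%) negative. Over all these features 65.9% had the same sign. Of the features that rose, 30 were called in both leaf positions, which is 3.88% of the latest leaf's list and 68.2% of the second latest leaf's 44. Of those that fell, 44 were called in both, which is 4.18% of the latest leaf's list and 72.1% of the second latest leaf's 61. No feature was called in opposite directions. The 74 shared calls became 9, 176 and 19 when day 6 replicates 1, 2 and 3 were left out of the treated libraries of both positions, and 29, 7 and 26 without day 0 replicates 1, 2 and 3. The treated changes of the 2 positions had a Pearson r of 0.49 (Spearman rho 0.44), against 0.29 (rho 0.30) for control changes, across 19197 features that are not independent replicates. These come from different libraries, whose same-numbered leaves deviated together.

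The features called in the latest leaf were also followed as a share of all counts in second latest leaves, whose libraries took no part in choosing them. Same-numbered leaves of the 2 positions deviated together (correlations between 0.195 and 0.416), so these libraries are not fully independent of the choice. The set that rose held 3.71% ± 0.0736 of counts in treated latest leaves at day 6 and 2.05% ± 0.115 at day 0, a direction that the choice fixes. In treated second latest leaves it held 3.94% ± 0.144 at day 6 and 2.92% ± 0.234 at day 0. Control second latest leaves had 2.98% ± 0.0270 at day 6 and 2.56% ± 0.0586 at day 0 (SD, n = 3 each). The set that fell held 14.0% ± 0.441 of counts in treated latest leaves at day 6 and 20.6% ± 0.918 at day 0. In treated second latest leaves it held 11.8% ± 0.568 at day 6 and 15.4% ± 1.57 at day 0, and in control second latest leaves 15.9% ± 0.824 at day 6 and 17.3% ± 0.603 at day 0 (SD, n = 3 each). The treated second latest libraries of the 2 days did not overlap for either set, and at day 6 they lay outside the range of all control libraries of that leaf. Lack of overlap between days was not particular to treated leaves. For the set that rose, control second latest libraries ran from 2.95% to 3.01% at day 6 and from 2.50% to 2.60% at day 0. In control latest leaves the 2 days did not overlap for either set.

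**Figure D4:**
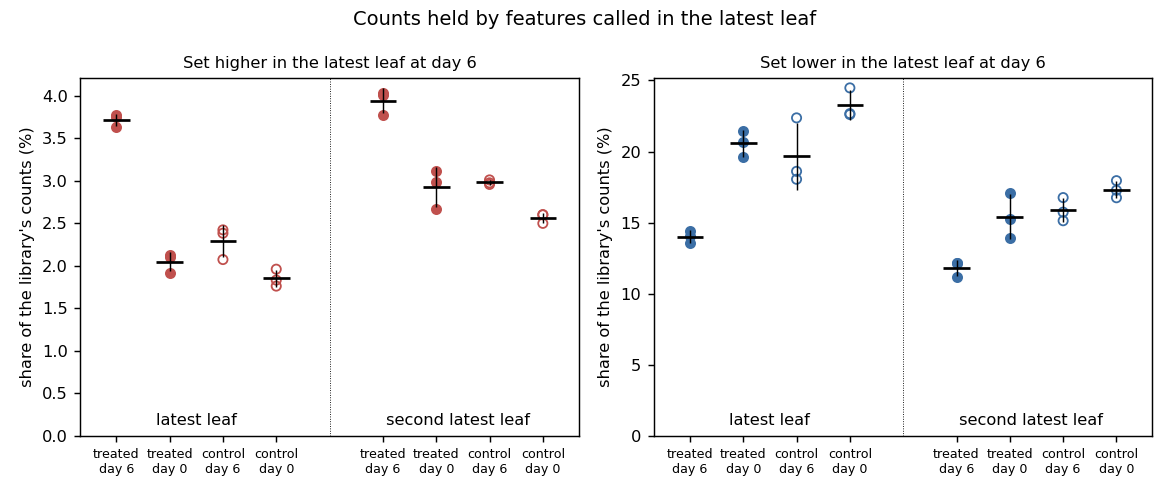
Points give each library's share of counts, in percent, held by the features that rose or fell in treated latest leaves, with the mean and SD of 3 libraries, for both leaf positions and treatments. In treated second latest leaves the set that rose averages 3.94% at day 6 against 2.92% at day 0, and the set that fell averages 11.8% against 15.4%.

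Whether the treated change differed between leaf positions was tested as latest minus second latest. Without regard to leaf number no feature passed among 20334 tested (0 by edgeR, 0% of those tested, although 1731 had a p under 0.05 before adjustment and DESeq2 called 72). The count of 0 became 124 without day 6 replicate 2 of the second latest leaf, 7 without day 0 replicate 3 of that leaf and 1 without day 6 replicate 1 of the latest leaf, all treated. Same-numbered leaves of a treatment and day deviated together in all 12 pairs, with correlations between 0.195 and 0.416. With that number as a replicate block 595 features passed, or 2.93%, 279 with a larger (1.37%) and 316 with a smaller (1.55%) log2 change in the latest leaf. These features were chosen for that difference, which favours opposite signs in the 2 positions, so their changes within each position are a description. Among 278 of those with a larger change that were tested within both leaf positions, the median change was 0.39 in the latest leaf and -0.39 in the second latest leaf, and 206 had opposite signs, with 10 called in the opposite direction in the second latest leaf. Among 311 of those with a smaller change the medians were -0.58 in the latest leaf and 0.33 in the second latest leaf, and 215 had opposite signs, with 7 called in the opposite direction in the second latest leaf. Feature 26226 was 1 of those with a larger change in the latest leaf, by 1.73 on the log2 scale (adjusted p = 0.00272). The blocked count was 224, 310 and 291 without both treated leaves numbered 1, 2 and 3 at day 0, and 165, 918 and 173 without those numbered 1, 2 and 3 at day 6.

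At later stages, in libraries that played no part in choosing the features, the called sets were compared between treated and control leaves without a test. Later stages had been left out of the main fits because earlier results of these data showed day 9 libraries apart. The day 9 differences may partly lie in the control libraries of that day, which was not tested. The 791 features that rose in the latest leaf had a median treated minus control difference of 0.34 on the log2 CPM scale at drought day 9 (80.9% higher in treated leaves, 2 treated libraries), 0.20 at 2 h of rehydration (70.3%), -0.09 at day 3 of rehydration (36.2%) and -0.20 at day 6 of rehydration (25.8%). The 1072 that fell had medians of -0.51, -0.33, 0.16 and 0.38 at these stages, and 11.4%, 20.8%, 77.3% and 88.9% of them were higher in treated leaves. By day 6 of rehydration the medians of both latest leaf sets had the opposite sign to that at day 9. For the set that rose, single treated libraries at day 6 of rehydration ran from -0.34 to 0.06, so not all shared that sign. For the set that fell they ran from 0.06 to 0.64. At day 3 the median of the set that rose was within the spread of its treated libraries (SD 0.101), which ran from -0.18 to 0.01. Over all tested features the medians stayed between -0.024 and 0.016, with 47.8% to 52.9% higher in treated leaves. In the second latest leaf the 45 that rose had medians of 0.72, 0.49, -0.01 and 0.14, and the 62 that fell had -0.62, -0.58, 0.16 and 0.14. For the 45 at day 3 of rehydration, the sign depended on single libraries, with values between -0.17 and 0.10 when each library of that stage was left out.

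**Figure D5:**
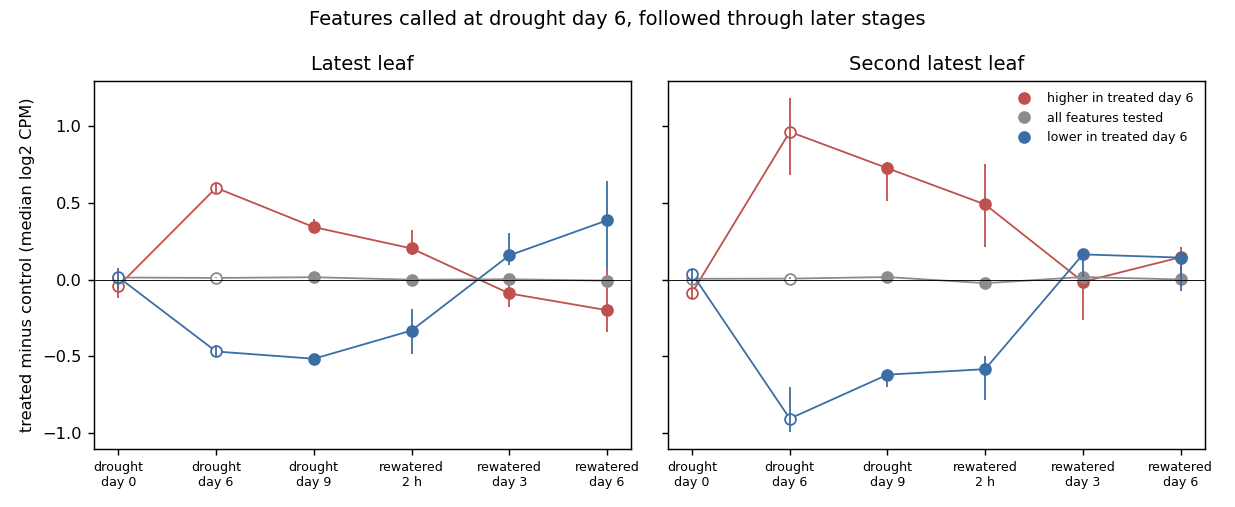
Lines give the median treated minus control difference in log2 CPM of the features that rose or fell at day 6, over 6 stages from drought day 0 to rehydration day 6, with vertical lines from the lowest to the highest treated library. Open points at days 0 and 6 share libraries with the choice of the features, and filled points are later stages. The latest leaf set that fell is at -0.51 at drought day 9 and at 0.38 at day 6 of rehydration.

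The named features followed different courses. CPM in this paragraph are scaled over all usable libraries and so differ slightly from those above, and no difference in it was tested. In latest leaves at drought day 9, feature 9453 averaged 0.223 ± 0.139 CPM in treated (SD, n = 2) and 46.0 ± 66.3 CPM in control leaves (SD, n = 3). At day 3 of rehydration it averaged 230 ± 182 CPM in treated and 99.9 ± 89.7 CPM in control latest leaves (SD, n = 3 each), with wide spreads in both. Feature 47519 averaged 4.12 ± 0.710 CPM in treated (SD, n = 2) and 23.9 ± 3.70 CPM in control latest leaves (SD, n = 3) at day 9, and 21.8 ± 2.57 CPM in treated and 12.3 ± 4.97 CPM in control latest leaves at day 6 of rehydration (SD, n = 3 each). Feature 40937 was still higher in treated latest leaves at day 9, with 21.0 ± 2.66 CPM (SD, n = 2) against 4.68 ± 1.63 CPM in control (SD, n = 3). Features 3736 and 45622 were highest 2 h after rewatering. In latest leaves at 2 h feature 3736 averaged 1211 ± 549 CPM in treated and 24.2 ± 1.87 CPM in control leaves, and in second latest leaves 1052 ± 613 CPM in treated and 21.0 ± 10.3 CPM in control leaves (SD, n = 3 each). Feature 45622 averaged 480 ± 197 CPM in treated and 51.5 ± 2.90 CPM in control latest leaves at 2 h (SD, n = 3 each). Feature 35558 averaged 5.65 ± 3.06 CPM in treated and 113 ± 46.0 CPM in control second latest leaves at day 9 (SD, n = 3 each). Control levels at day 9 were themselves shifted for some of these features. In control second latest leaves feature 3736 averaged 54.8 ± 8.03 CPM at day 9 and 20.3 ± 0.238 CPM at day 6. Feature 9453 averaged 6.96 ± 0.602 and 41.9 ± 15.8 CPM there, while feature 47519 was close at 11.1 ± 1.92 and 10.4 ± 1.53 CPM (SD, n = 3 each).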

How the data were processed

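Whole leaves were sequenced as polyadenylated RNA. The deposited values are raw counts per feature, 55986 features in 72 libraries, with every column matched to a sample. Per the submitters' processing notes, STAR (version not given) and featureCounts 2.0.0 were used with build IRGSP-1.0, and the strand setting used in counting is not given. No replicates were pooled in the table.

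Here, features of the 12 libraries of drought days 0 and 6 of each leaf position were filtered with filterByExpr, scaled by TMM and tested with edgeR 4.0.16 (quasi-likelihood, 1 mean per group, Benjamini-Hochberg threshold 0.05) in R 4.3.3. The test between leaf positions used all 24 libraries. Log2 CPM values had a prior count of 2. Equal-depth feature numbers are expectations at the smallest library's total, and the library measures were compared by exact permutation tests. Scripts were tested on simulated data. DESeq2 1.42.0, other scaling, filters, library sets and left-out replicates were alternatives. One day 9 treated latest leaf library of replicate 2 held 1755 counts and was left out.

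Named features had a mean of at least 10 CPM in the higher treated group, no overlap of treated libraries between the days, and an adjusted p under 0.05 in the treated comparison and the difference, or in the treated comparison alone where under 2 features passed both. The largest fitted changes in each direction were taken. The libraries were picked by their labels, but this choice, the features and the tests were all made with earlier results of these data known.

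Replicate numbers come from the labels, which do not say that they mark a shared plant. Deviations from group means correlated over 0.1 in all 12 pairs of same-numbered leaves (0.195 to 0.416), and in all 3 day pairs of treated second latest leaves (0.129 to 0.195), but not in all of those of treated latest leaves (0.0749 to 0.201). No 2 replicates held identical values, and all 24 replicate pairs differed beyond counting noise (chi-square per degree of freedom between 6.12 and 43.5).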

Additional observations from a re-analysis of the deposited data

Results flagged for a closer look

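With same-numbered leaves paired, the treated change from day 0 to day 6 differed between the leaf positions for 595 features (edgeR, replicate block). That is 2.93% of 20334 tested, by the test of that difference. Without the pairing no feature passed (0 by edgeR), and whether these numbers pair the leaves was not settled. The paired count ran from 165 to 918 when both treated leaves of 1 number and day were left out. Among the named features, feature 26226 differed by 1.73 on the log2 scale, latest minus second latest (adjusted p = 0.00272), feature 47519 by -0.97 (adjusted p = 0.0263) and feature 3736 by -1.15 (adjusted p = 0.0105).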

How the results depend on the processing

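Changes of at least 2-fold numbered 564 in treated and 18 in control latest leaves, 47 among calls shared by both positions and 235 in the paired comparison of positions. Without a low-count filter the counts were 2824 (treated) and 938 (control) in the latest leaf, 1043 for their difference, 1459 and 342 in the second latest leaf, 664 for their difference, 638 between positions and 744 shared. In that setting the adjusted p of feature 9453 in treated latest leaves was 1.92e-199, at a nearly unchanged log2 fold change of -4.33. Its counts are therefore given for completeness only. DESeq2 gave 278 for latest leaf controls, 439 for the latest leaf difference, 667 and 17 for treated and control second latest leaves, 48 for their difference, 72 between positions and 344 shared. With the 6 libraries of each contrast alone the counts were 0 for latest leaf controls, 11 for treated second latest leaves and 11 shared. With all usable libraries of a leaf they were 720 (treated), 0 (control) and 8 (difference) in the latest leaf, and 1 (control) and 1 (difference) in the second. The replicate block gave 111 for latest leaf controls, 173 for the latest leaf difference, 170 for treated second latest leaves, 595 between positions and 114 shared, and moved no other count by over 1.5 times and changed no call of a named feature within a leaf position. Between positions it brought features 26226, 47519 and 3736 past the threshold (adjusted p = 0.377, 0.313 and 0.235 without it). Same-numbered latest leaves of the 2 days had correlations between 0.0749 and 0.201 in treated and between 0.0837 and 0.278 in control libraries. Whether these numbers pair the samples was not settled.

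Leaving out 1 library gave 843 to 1389 treated calls, 0 to 489 control calls and 3 to 239 differences in the latest leaf. In the second latest leaf it gave 11 to 503 treated calls and 0 to 36 differences. Between positions it gave 0 to 124. Leaving out both leaves of a treated number gave 224, 310 and 291 (day 0) and 165, 918 and 173 (day 6) paired calls, and 29, 7 and 26 (day 0) and 9, 176 and 19 (day 6) shared calls. The cause was not tested.

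As deposited, without equal depth, treated latest leaves had 21 fewer features at day 6 than at day 0 (-21). The top-10 share of control second latest leaves moved between -0.796 and 0.366 percentage points with 1 library left out, and was positive without control day 0 replicate 1 (0.366) or control day 6 replicate 3 (0.170).

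Left-out libraries moved the later medians of log2 CPM between -0.555 and -0.461 (lower set, latest leaf, day 9), 0.529 and 0.839 (higher set, second latest leaf, day 9), -0.660 and -0.545 (lower set, second latest leaf, day 9) and 0.0828 and 0.276 (lower set, second latest leaf, day 3 of rehydration). For the higher set of the second latest leaf at day 3 of rehydration the range was -0.167 to 0.102, positive without treated replicate 3 (0.102), control replicate 1 (0.0480) or control replicate 3 (0.0434). The paired comparison's alternatives, the shared calls and the left-out libraries of later stages were added after seeing the data. Relative log expression factors kept every count within 1.5 times. Depth limits features near 3 counts.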
